A study of Mus musculus with 6 samples.

Results

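The synaptonemal complex is represented here by 8 genes, *Sycp1*, *Sycp2*, *Sycp3*, *Syce1*, *Syce2*, *Syce3*, *Tex12* and *Six6os1*, which the deposited table lists as *4930447C04Rik*. They were chosen by symbol from the 54532 genes of that table. Genes whose mean FPKM over the libraries reached 0.5 were tested, which were 17180 genes and included 8 of 8 members. RNA of whole mouse ovaries was sequenced at 16.5 dpc in 3 Ctrl and 3 cKO libraries, all of C57BL/6 strain. The cKO mice were *Stra8-GFPCre* *Srsf1* Fl/Fl animals, in which the *Stra8* promoter drives Cre in germ cells entering meiosis and Cre removes coding exons of *Srsf1*, a splicing factor. The labels give the Ctrl genotype as wild type. Each library mixes RNA of germ cells with that of somatic cells, in which this promoter is not known to drive Cre. The paper counts 3 biological replicates in each condition, and the labels do not say whether libraries came from separate litters. The p-values thus set a group difference against the spread between these libraries, which may not be that between litters.

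The synaptonemal complex is the zipper-like protein structure that holds paired homologous chromosomes together in meiotic prophase I. SYCP2 and SYCP3 build the chromosome axes, which become its lateral elements, SYCP1 forms the transverse filaments that reach from each axis to the middle, and SYCE1, SYCE2, SYCE3, TEX12 and SIX6OS1 form the central element. Fetal oocytes assemble it before birth, and synapsis fails in mice that lack its core proteins.

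The promoters of several of these genes are shown first, because they are sequence that the members share or lack. Many germline genes of the mouse carry an E-box and an E2F site before their start, bound by factors that hold such genes off in somatic cells. RefSeq windows of 250 bases before a start (GRCm38.p6) were found for 8 of 8 genes, and 6 stretches of them that lie outside the deposited gene are printed 5′ to 3′ on the gene's strand. Capitals mark the E-box CACGTG and the E2F core TCCCGC, which reads GCGGGA on the other strand.
Sycp1, chr3:102936101-102936250, minus strand: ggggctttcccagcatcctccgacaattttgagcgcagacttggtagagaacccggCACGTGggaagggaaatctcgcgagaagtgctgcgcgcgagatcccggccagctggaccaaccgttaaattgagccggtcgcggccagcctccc
Sycp3, chr10:88459437-88459568, plus strand: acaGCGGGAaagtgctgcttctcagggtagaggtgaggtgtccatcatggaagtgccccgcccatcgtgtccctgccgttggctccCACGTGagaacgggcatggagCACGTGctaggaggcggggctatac
Tex12, chr9:50561326-50561418, minus strand: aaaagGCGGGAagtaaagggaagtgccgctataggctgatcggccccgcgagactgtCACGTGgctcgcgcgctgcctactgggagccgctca
Syce2, chr8:84871961-84872110, plus strand: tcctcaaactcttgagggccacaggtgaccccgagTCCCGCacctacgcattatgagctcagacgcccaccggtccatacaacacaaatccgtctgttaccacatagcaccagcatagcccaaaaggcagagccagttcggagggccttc
Syce1, chr7:140787855-140788004, minus strand: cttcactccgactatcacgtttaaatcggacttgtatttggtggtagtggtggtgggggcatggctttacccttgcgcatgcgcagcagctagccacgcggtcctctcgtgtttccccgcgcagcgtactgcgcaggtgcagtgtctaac
Syce3, chr15:89410504-89410653, minus strand: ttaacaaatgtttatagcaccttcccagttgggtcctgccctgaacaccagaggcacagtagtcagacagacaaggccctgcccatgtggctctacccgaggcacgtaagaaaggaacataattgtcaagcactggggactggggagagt
*Sycp1* held 1 E-box, 94 bases before its RefSeq start. *Sycp3* held 2 E-boxes, 64 and 43 bases before the start, and an E2F core at 147, and *Tex12* held an E-box at 93 and an E2F core at 145. *Syce2* had an E2F core at 115 bases in the window shown, while *Syce1*, *Syce3* and *Sycp2*, which is not printed, had neither motif in any window.

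Searched on both strands in the whole windows, the E-box was in 5 of 8 members (*Sycp1*, *Sycp3*, *Syce2*, *Tex12* and *Six6os1*), against 6.86% of all 27025 genes with a window. The *Syce2* E-box was in a second window that starts inside the deposited gene, and the *Six6os1* window lies 23009 bases inside its gene. The E2F core was in 3 of 8 members (*Sycp3*, *Syce2* and *Tex12*), against 18.8% of all genes. The letters CCTCAG, the core of the motif bound by the meiotic activators STRA8 and MEIOSIN, were in 3 of 8 (*Syce2*, *Tex12* and *Six6os1*), against 24.8%. Each of these CCTCAG matches lies inside the deposited gene, that of *Syce2* in its second window. That of *Tex12* is 7 bases before a RefSeq start that is 57 bases inside the gene. The letters TGACGT, part of the cAMP response element, was in 0 of 8, against 7.29%. A match is a description of the letters in a window, and binding was not measured here.

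The targeted gene was read first. *Srsf1* FPKM, the reads on a gene scaled by its length and by the size of the library, was between 63.1 and 80.2 in Ctrl and between 32.4 and 37.0 in cKO. Its log2 fold change was -0.99 (SE 0.13, unadjusted p = 0.000158 and Benjamini-Hochberg adjusted p = 0.497 in limma), so the targeted gene followed the labels. Reads on genes were between 14212164 and 16784241 per library. Correlations of libraries across genes were between 0.942 and 0.966 within Ctrl, 0.945 and 0.961 within cKO and 0.928 and 0.967 across the groups. No gene passed an adjusted p below 0.05 (0 genes in limma and 0 under limma voom), while 460 genes were higher and 301 lower in cKO at an unadjusted p below 0.05, the limit used from here on.

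All 8 members were clearly expressed at 16.5 dpc, with mean FPKM over the 6 libraries between 32.5 and 74.6, above at least 90.8% of the genes tested. The spread among libraries of a group was wide, and the Ctrl and cKO libraries overlapped for 8 of 8. *Syce1*, *Syce2* and *Tex12*, all of the central element, were higher in cKO at the unadjusted limit (adjusted p = 0.978 each in limma). Over all genes tested, 2.68% were higher and 1.75% lower. Set against the germ-cell level of each library, *Syce1* and *Tex12* were higher in cKO and *Syce3* was lower, with no overlap between the groups. On that scale 3.61% of all genes tested did not overlap, though all genes are not a like set there. With *Dazl* alone as the germ-cell level, *Syce1* and *Tex12* overlapped between the groups and 5 members were lower in cKO.

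Of the lateral element genes, *Sycp2* (chromosome 2, 178345293 to 178407685, minus strand) had an FPKM of 9.68, 20.4 and 39.4 in Ctrl 1, 2 and 3 and of 62.3, 15.0 and 51.7 in cKO 1, 2 and 3. Ctrl 1 and cKO 2 were the lowest libraries, and cKO 2 lay below Ctrl 2 and Ctrl 3. Means were 23.2 ± 15.0 for Ctrl and 43.0 ± 24.8 for cKO (SD, n = 3 each), a log2 fold change of 0.84 on the log2(FPKM + 1) scale (SE 0.65, unadjusted p = 0.233 in limma). *Sycp3* (chromosome 10, 88459569 to 88473236, plus strand) had an FPKM of 29.1, 59.3 and 110.4 in Ctrl 1, 2 and 3 and of 90.0, 39.0 and 115.3 in cKO 1, 2 and 3. The same libraries were low, and Ctrl 3 reached nearly the level of cKO 3. Its log2 fold change was 0.36 (SE 0.56, unadjusted p = 0.545 in limma). *Sycp3* shares 660 exonic bases, 52.2% of its own, with *Chpt1* on the other strand, and no source used here says whether reads were counted by strand. *Chpt1* FPKM was between 6.53 and 9.83 over the 6 libraries and did not follow the spread of *Sycp3*.

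*Sycp1* (chromosome 3, 102818499 to 102936100, minus strand), the transverse filament gene, had an FPKM of 22.7, 67.1 and 115.3 in Ctrl 1, 2 and 3. In cKO 1, 2 and 3 it was 102.7, 26.6 and 113.3. The highest library of each group was close to that of the other, and the lowest libraries, Ctrl 1 and cKO 2, were close as well. Means were 68.4 ± 46.3 and 80.9 ± 47.3 (SD, n = 3 each), a log2 fold change of 0.27 (SE 0.73, unadjusted p = 0.726 in limma). Each library held between 1213 and 7163 *Sycp1* reads, so counting error was small against the spread between libraries.

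In the central element, *Syce1* (chromosome 7, 140777229 to 140787852, minus strand) had an FPKM of 10.6, 17.1 and 32.9 in Ctrl 1, 2 and 3 and of 58.7, 27.3 and 48.5 in cKO 1, 2 and 3. Only cKO 2 lay within the range of Ctrl, below Ctrl 3. The mean rose from 20.2 ± 11.5 to 44.8 ± 16.0 (SD, n = 3 each), a log2 fold change of 1.19 (SE 0.44, unadjusted p = 0.0306 and adjusted p = 0.978 in limma). *Syce2* (chromosome 8, 84872111 to 84888221, plus strand) had an FPKM of 21.2, 25.4 and 40.3 in Ctrl and of 65.2, 33.6 and 60.1 in cKO. Its order of libraries was that of *Syce1*, with cKO 2 again below Ctrl 3. The log2 fold change was 0.84 (SE 0.32, unadjusted p = 0.0343 and adjusted p = 0.978 in limma).

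*Tex12* (chromosome 9, 50556819 to 50561325, minus strand), whose protein pairs with SYCE2, had an FPKM of 13.2, 22.7 and 39.4 in Ctrl 1, 2 and 3 and of 61.0, 32.7 and 85.8 in cKO 1, 2 and 3. Its cKO 3 value was the highest and cKO 2 again fell between Ctrl 2 and Ctrl 3. The mean rose from 25.1 ± 13.3 to 59.8 ± 26.5 (SD, n = 3 each), a log2 fold change of 1.25 (SE 0.46, unadjusted p = 0.0318 and adjusted p = 0.978 in limma). *Tex12* lies within the span of *Il18* on the other strand and shares 0 exonic bases with it. *Il18* FPKM was 6.21, 13.5 and 24.6 in Ctrl and 34.1, 11.0 and 26.0 in cKO. Like *Tex12*, *Il18* was lowest in Ctrl 1, rose to Ctrl 3 and was lowest among the cKO libraries in cKO 2. Its highest library was cKO 1 and not cKO 3. Why the courses of these genes are alike was not tested.

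*Six6os1* (chromosome 12, 72881109 to 72940774, minus strand), whose protein binds SYCE1, had an FPKM of 19.4, 44.4 and 80.3 in Ctrl 1, 2 and 3 and of 83.1, 22.1 and 92.7 in cKO 1, 2 and 3. As for *Sycp1*, Ctrl 1 and cKO 2 were the lowest libraries, and cKO 2 lay below Ctrl 2 and Ctrl 3, so the groups overlapped. The log2 fold change was 0.43 (SE 0.67, unadjusted p = 0.548 in limma). *Syce3* (chromosome 15, 89390174 to 89410503, minus strand), needed to bring the other central element proteins onto SYCP1, had an FPKM of 19.5, 51.9 and 77.2 in Ctrl and of 54.4, 19.7 and 31.2 in cKO. It was the only member whose mean was lower in cKO, 35.1 ± 17.7 against 49.6 ± 28.9 (SD, n = 3 each), with a log2 fold change of -0.40 (SE 0.55, unadjusted p = 0.489 in limma). Its cKO 3 value was far below that of cKO 1, and only cKO 2 was lower among the cKO libraries.

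**Figure D1:**
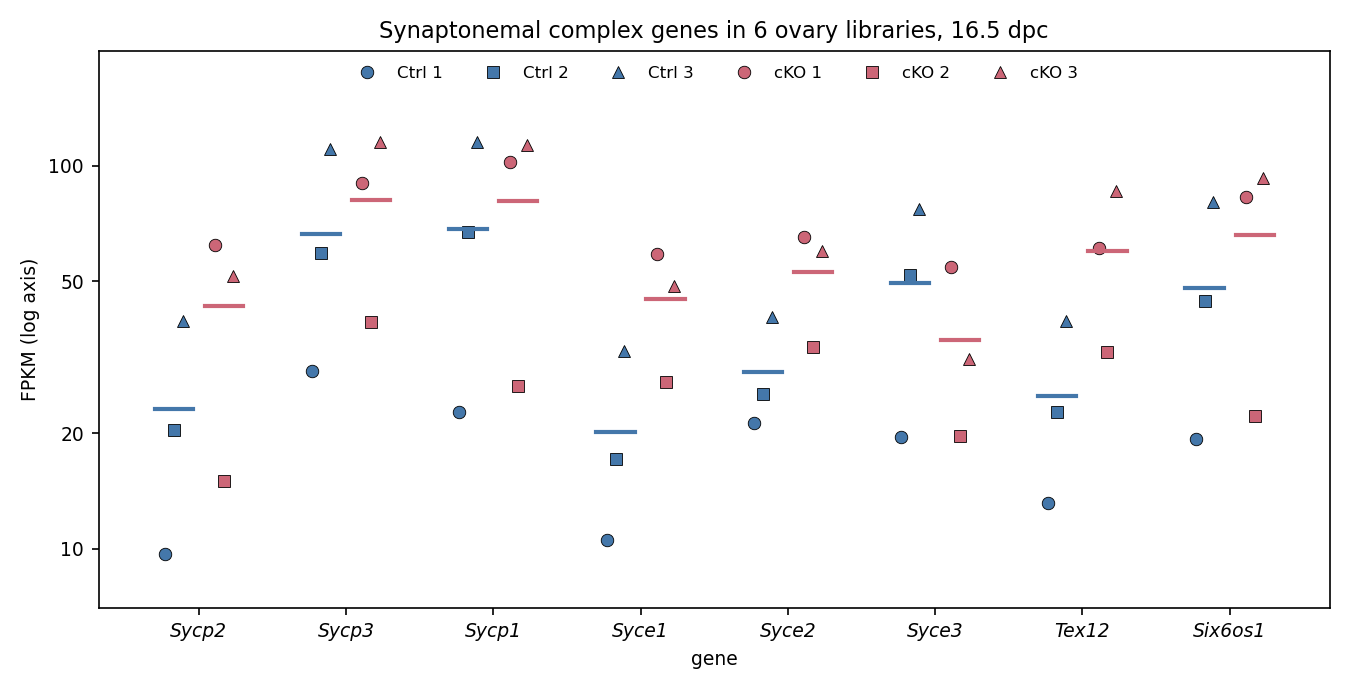
FPKM on a log axis of the 8 synaptonemal complex genes in the 3 Ctrl libraries (blue) and the 3 cKO libraries (red), with a bar at the mean of each group. Ctrl 1 is the lowest library for 8 of 8 genes, cKO 2 is the lowest cKO library for 8 of 8, and the groups overlap for every gene.

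At the unadjusted limit, 3 of 8 members were higher in cKO and 0 were lower. Over all genes tested, 2.68% were higher and 1.75% lower at the same limit. The median log2 fold change of the 8 was 0.63, with 7 of 8 above 0, and over all genes tested it was -0.0091. No member had groups that did not overlap, against 8.68% of all genes. Leaving out Ctrl 1, Ctrl 2, cKO 1 or cKO 3 brought the 3 higher genes to 0, and leaving out Ctrl 3 kept the count at 3. Leaving out cKO 2 gave 4, with *Sycp2* added (log2 fold change 1.46, unadjusted p = 0.0378 in limma). Calls over all genes moved too. Dropping cKO 2 raised the higher genes from 460 to 1461 and the lower genes from 301 to 1039. Where the members fell to 0, the higher genes numbered between 202 (Ctrl 2 dropped) and 246 (Ctrl 1 dropped). The lower genes in those fits numbered between 163 (Ctrl 2 dropped) and 386 (Ctrl 1 dropped). Dropping Ctrl 3 left 551 genes higher and 625 lower. Whether the member counts moved more than these was not tested. The sign of the fold change of *Sycp1* turned without Ctrl 1 (-0.37), without cKO 1 (-0.029) and without cKO 3 (-0.099), those of *Sycp3* (-0.13) and *Six6os1* (-0.10) without Ctrl 1, and that of *Syce3* without Ctrl 3 (0.015).

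Among themselves the members kept a steady order only in part. *Sycp1* and *Sycp3* had the highest mean FPKM, 74.6 and 73.9, but *Sycp1* was above *Sycp3* in only 3 of the 6 libraries. *Sycp3* was above the next gene, *Six6os1* (57.0), in 6 of 6. *Tex12* (42.5), *Syce3* (42.3) and *Syce2* (41.0) followed with means that differed by less than their spread, and *Sycp2* (33.1) and *Syce1* (32.5) were the lowest. The highest library exceeded the lowest by 3.07-fold for *Syce2* and by 6.50-fold for *Tex12*, the smallest and the largest such range. All 8 were lowest in Ctrl 1, and the highest library was Ctrl 3 for 2 genes, cKO 1 for 3 and cKO 3 for 3.

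This shared rise and fall went with the mean level of other germ-cell genes, though not with each of them. The mean log2(FPKM + 1) of 10 genes expressed in germ cells, among them *Ddx4* and *Dazl*, was 2.92, 3.71 and 4.38 in Ctrl 1, 2 and 3, against 4.66, 3.57 and 4.77 in cKO 1, 2 and 3. Ctrl 1 was the lowest and cKO 2 lay below Ctrl 2, as for 5 of the 8 members. The difference between the groups was 0.66 (exact permutation test, two-sided, p = 0.3). The 10 genes were *Ddx4*, *Dazl*, *Mael*, *Taf4b*, *Tex14*, *Tex15*, *Rnf17*, *Tdrkh*, *Dnd1* and *Elavl2*. Of these, *Dnd1* ran the other way, with an FPKM of 4.15, 2.18 and 2.56 in Ctrl and 0.858, 3.46 and 2.13 in cKO. Over the 6 libraries, Pearson's r with this germ-cell level was between 0.921 and 0.986 for 7 of the 8 members and 0.611 for *Syce3*. These values describe libraries of the same tissue whose germ-cell level and share of globin reads differed, and they carry no test. The summed FPKM of the 8 members was 145, 308 and 535 in Ctrl and 577, 216 and 598 in cKO. In bulk ovary RNA, fewer germ cells and less RNA per germ cell cannot be told apart.

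Markers of other cells were read in the same libraries. Of the 10 pregranulosa genes 0 passed the limit, with summed FPKM between 588 and 715 in Ctrl and between 576 and 819 in cKO, and so did 0 of 7 stroma, 0 of 6 endothelium, 0 of 5 immune and 0 of 3 mesonephros genes tested. Over all genes tested, 2.68% were higher and 1.75% lower at this limit. In lists this short, 0 calls thus do not show that these cells were unchanged. Of the 8 red blood cell genes, 6 were highest in Ctrl 1, and *Hbb-y* and *Hba-x*, globins of the embryo, were highest in cKO 1. The list, most of it adult globins, had a summed FPKM between 4860 and 22984 in Ctrl and between 1716 and 10420 in cKO. Globin reads were 1.69% of all reads in Ctrl 1, 0.608% in Ctrl 2 and 0.388% in Ctrl 3. They were 0.129%, 0.796% and 0.746% in cKO 1, 2 and 3. At the limit, 1 of the 8 passed, *Hbb-y*, which was higher in cKO. Whether its reads were split with other globin genes was not tested. *Hba-x* had a log2 fold change of 1.33 (unadjusted p = 0.0740 in limma) and did not pass. The part of blood in the members' values was not tested.

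To compare the members at a like germ-cell level, the mean of the germ-cell genes was taken from each member's log2 level in the same library. On this scale *Tex12* was 0.91, 0.86 and 0.95 in Ctrl 1, 2 and 3, against 1.30, 1.51 and 1.67 in cKO 1, 2 and 3. The Ctrl libraries lay close together, and every cKO library was above them. The difference was 0.58 (SE 0.11, two-sided exact permutation p = 0.1, which is the lowest possible with 3 libraries a group). *Syce1* was 0.61, 0.47 and 0.70 in Ctrl and 1.24, 1.25 and 0.86 in cKO, higher in every cKO library by a mean of 0.52 (SE 0.14, exact permutation p = 0.1). *Syce3* went the other way, with 1.44, 2.02 and 1.91 in Ctrl and 1.13, 0.80 and 0.24 in cKO. Its difference was -1.06 (SE 0.31, exact permutation p = 0.1). On this scale cKO 3 was the lowest library, in part because its germ-cell level, which is taken off, was the highest. The *Syce3* FPKM of cKO 3, 31.2, lay above that of cKO 2 (19.7) and Ctrl 1 (19.5).

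These 3 of 8 members whose groups did not overlap compare with 3.61% of all genes tested on the same scale. Taking off the germ-cell level removes spread only from genes that follow it, and the share over all genes was 8.68% before this. All genes are thus not a like set here. Of 23 other genes of axes, synapsis and recombination, *Hormad2*, *Rad21l*, *Ccdc36*, *Msh4* and *Psmc3ip* did not overlap either. Nor did *Gm4969* and *Stra8*, of 5 genes of meiotic initiation. The other 5 members overlapped, with differences of 0.18 for *Sycp2* and *Syce2*, -0.24 for *Six6os1*, -0.31 for *Sycp3* and -0.40 for *Sycp1* (exact permutation p between 0.2 and 0.7). With *Ddx4* alone as the germ-cell level the same 3 genes stood apart. With *Dazl* alone, *Syce1* and *Tex12* did not, and 5 members were lower in cKO (*Sycp1*, *Sycp2*, *Sycp3*, *Syce3* and *Six6os1*). *Dazl*, an RNA-binding protein of germ cells, had itself passed the limit, with an FPKM of 23.0, 39.1 and 80.0 in Ctrl and 168.6, 56.8 and 219.2 in cKO. Without Ctrl 1, 7 of 8 members did not overlap, and without each other library 3 or 4 did not. The share over all genes on this scale was not computed with a library left out.

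**Figure D2:**
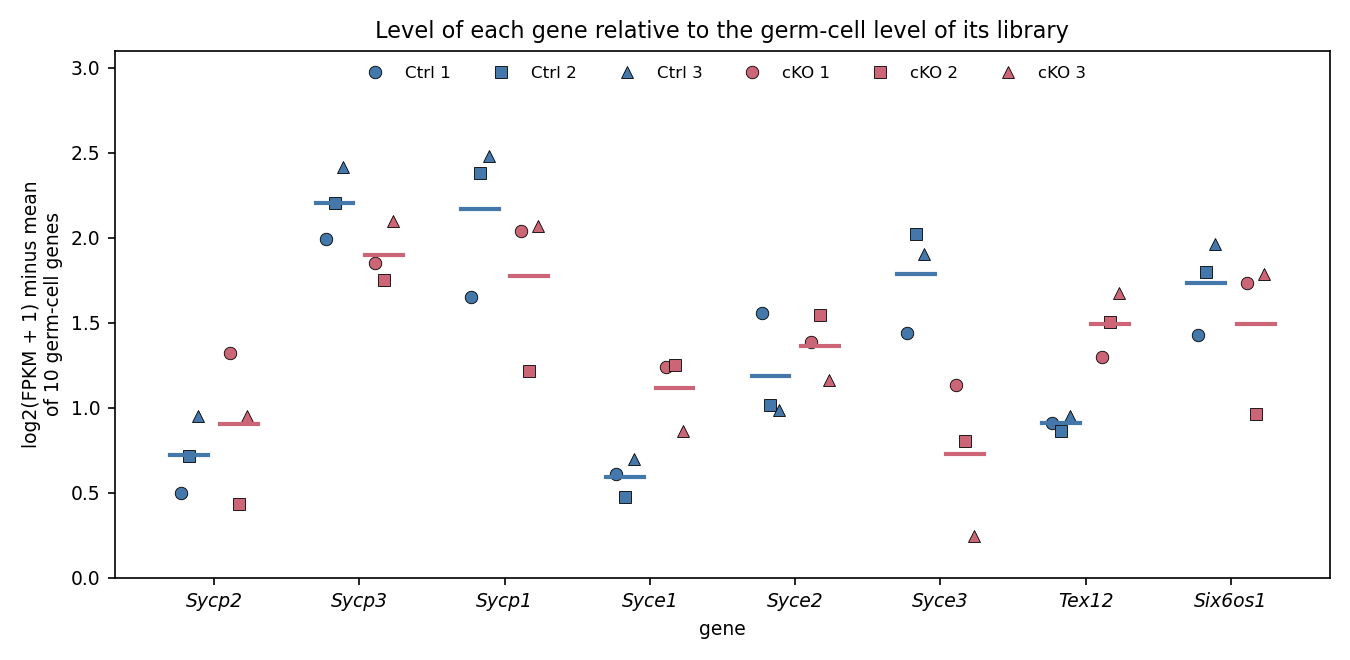
Level of each gene as log2(FPKM + 1) minus the mean log2(FPKM + 1) of 10 germ-cell genes in the same library, for Ctrl (blue) and cKO (red), with a bar at each group mean. *Syce1* and *Tex12* lie higher and *Syce3* lower in the 3 cKO libraries with no overlap, and the other 5 genes overlap.

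The germ-cell level was also entered as a covariate in the fit of all genes. At the unadjusted limit, 3 members were then higher in cKO and 4 lower, where 2.32% of all genes were higher and 3.71% lower. The covariate takes up spread mainly in genes that follow the germ-cell level, so all genes are not a like set. *Tex12* (log2 fold change 0.57, SE 0.15), *Syce1* (0.56, SE 0.17) and *Syce2* (0.40, SE 0.14) were higher, each with an unadjusted p between 0.00768 and 0.0310 in limma. *Syce3* fell by 1.14 (SE 0.31), *Sycp1* by 0.82 (SE 0.14), *Six6os1* by 0.58 (SE 0.14) and *Sycp3* by 0.47 (SE 0.12) on the log2 scale, with an unadjusted p between 0.00121 and 0.00987 in limma. *Sycp2* was near 0 (-0.11, SE 0.17, unadjusted p = 0.557 in limma). No adjusted p was below 0.593 for any member, and with 6 libraries and 3 terms few degrees of freedom remained.

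The split between the genes depended on the covariate and on single libraries. With *Ddx4* as the covariate, *Syce1*, *Syce2* and *Tex12* were higher, *Syce3* (-0.85) and *Sycp1* (-0.39) lower, and *Sycp3* and *Six6os1* did not pass. With *Dazl* as the covariate 0 members were higher and 5 were lower, and *Syce1* (0.13), *Syce2* (0.055) and *Tex12* (0.056) were near 0. Over all 17180 genes, 517 were higher and 542 lower with *Ddx4*, and 551 higher and 816 lower with *Dazl*. Leaving out *Dazl* or *Dnd1* from the germ-cell genes kept the same 7 genes past the limit. With single libraries left out, between 4 and 7 members passed, the fewest without Ctrl 3 (*Syce1*, *Tex12*, *Sycp1* and *Six6os1*) and without cKO 2 (*Syce2*, *Syce3*, *Sycp1* and *Sycp3*). Over all genes, 315 were higher and 456 lower without Ctrl 3, and 714 and 749 without cKO 2. In the 6 fits with a library left out the fold change of *Syce3* stayed between -1.40 and -0.96, that of *Sycp1* between -1.04 and -0.72 and that of *Tex12* between 0.52 and 0.64. *Sycp1* passed in 6 of 6 of them.

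**Figure D3:**
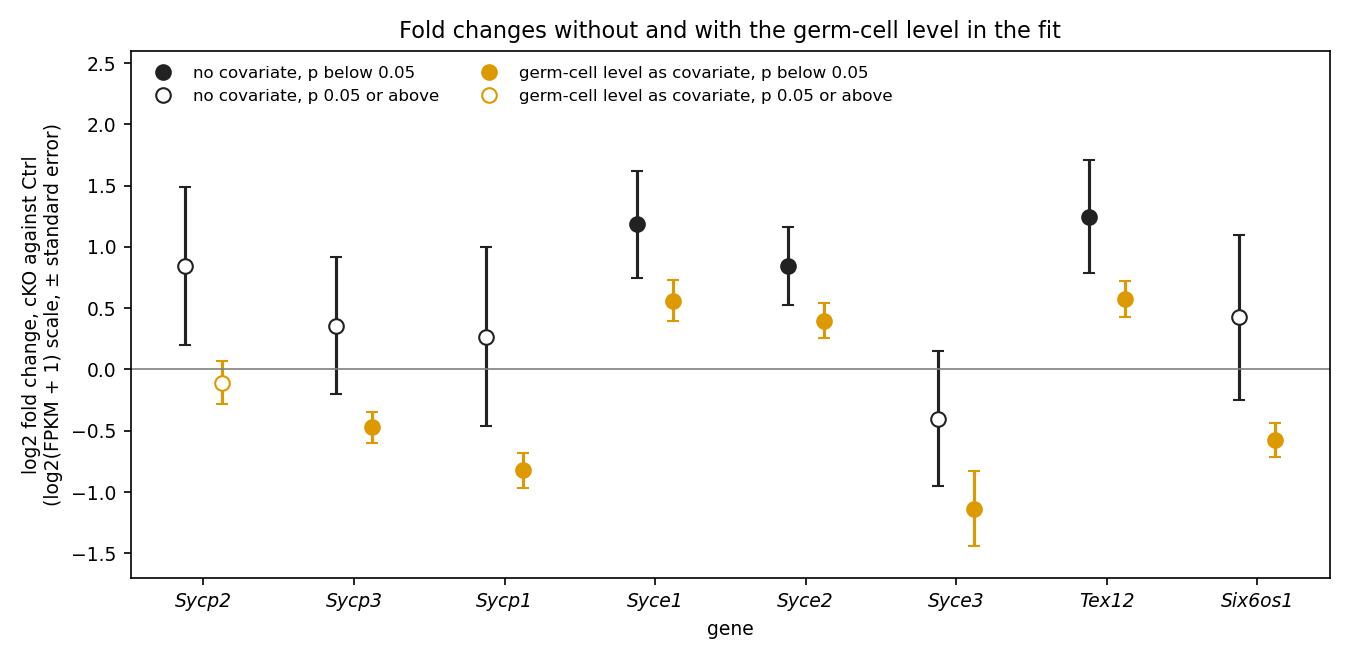
Log2 fold change of cKO against Ctrl from limma, with SE bars, without a covariate (black) and with the germ-cell level as a covariate (orange), where filled points have an unadjusted p below 0.05. With the covariate the bars shorten, *Syce1*, *Syce2* and *Tex12* stay above 0, and *Sycp1*, *Sycp3*, *Syce3* and *Six6os1* lie below it.

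Ratios between members need no germ-cell list, because both genes are read in the same library. Of the 28 pairs, 13 had log2 ratios that did not overlap between Ctrl and cKO, against 8.01% of all 137376 ratios of a member to another tested gene. Members rise and fall together, which narrows the spread of their ratios, so that share is not of a like set. Of the 7 pairs that hold *Syce3*, 6 did not overlap, the exception being that with *Sycp1*. The same held for 4 of the 7 pairs each of *Sycp2*, *Sycp3* and *Tex12*, 3 of *Six6os1*, 2 each of *Sycp1* and *Syce1* and 1 of *Syce2*. The pairs share genes and are not independent of each other.

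The largest change was in *Syce3* over *Tex12*. The FPKM of *Syce3* was 1.48, 2.28 and 1.96 times that of *Tex12* in Ctrl 1, 2 and 3, against 0.891, 0.603 and 0.364 times in cKO 1, 2 and 3. Every Ctrl library thus held more *Syce3* than *Tex12* per length, and every cKO library held less. The log2 ratio differed by -1.65 (SE 0.41, exact permutation test, two-sided, p = 0.1). *Syce1* over *Syce3* was 0.540, 0.330 and 0.426 in Ctrl and 1.08, 1.38 and 1.55 in cKO, a log2 difference of 1.59 (SE 0.26, exact permutation p = 0.1). The order of these central element genes was thus reversed between the groups in 3 of 3 libraries each.

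Between the axis and the central element, *Sycp3* over *Tex12* was 2.21, 2.61 and 2.80 in Ctrl and 1.47, 1.19 and 1.34 in cKO, a log2 difference of -0.89 (SE 0.14, exact permutation p = 0.1). *Sycp3* over *Syce1* differed by -0.83 (SE 0.25) and *Sycp1* over *Tex12* by -0.98 (SE 0.40), the latter with Ctrl 1 at 1.72 and cKO 1 at 1.68, which nearly touch. Within the axis, *Sycp2* over *Sycp3* was 0.332, 0.344 and 0.357 in Ctrl and 0.692, 0.385 and 0.448 in cKO, so the steady Ctrl ratio was exceeded in every cKO library (log2 difference 0.49, SE 0.24, exact permutation p = 0.1).

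Some pairs overlapped and differed little in their mean ratio, which with 3 libraries a group does not show that the ratio was unchanged. *Sycp1* over *Six6os1* was 1.17, 1.51 and 1.44 in Ctrl and 1.24, 1.20 and 1.22 in cKO (log2 difference -0.16, SE 0.11, exact permutation p = 0.4). The log2 differences of *Sycp1* over *Sycp3* (-0.089, SE 0.27, exact permutation p = 0.7) and of *Syce1* over *Tex12* (-0.061, SE 0.23, exact permutation p = 0.9) were below their errors. As a share of the summed FPKM of all 8 members, *Syce3* was 13.4%, 16.8% and 14.4% in Ctrl and 9.42%, 9.12% and 5.21% in cKO. Without Ctrl 1 the number of pairs that did not overlap was 20, without the other libraries it was between 13 and 16. The share over all ratios was not computed for these.

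**Figure D4:**
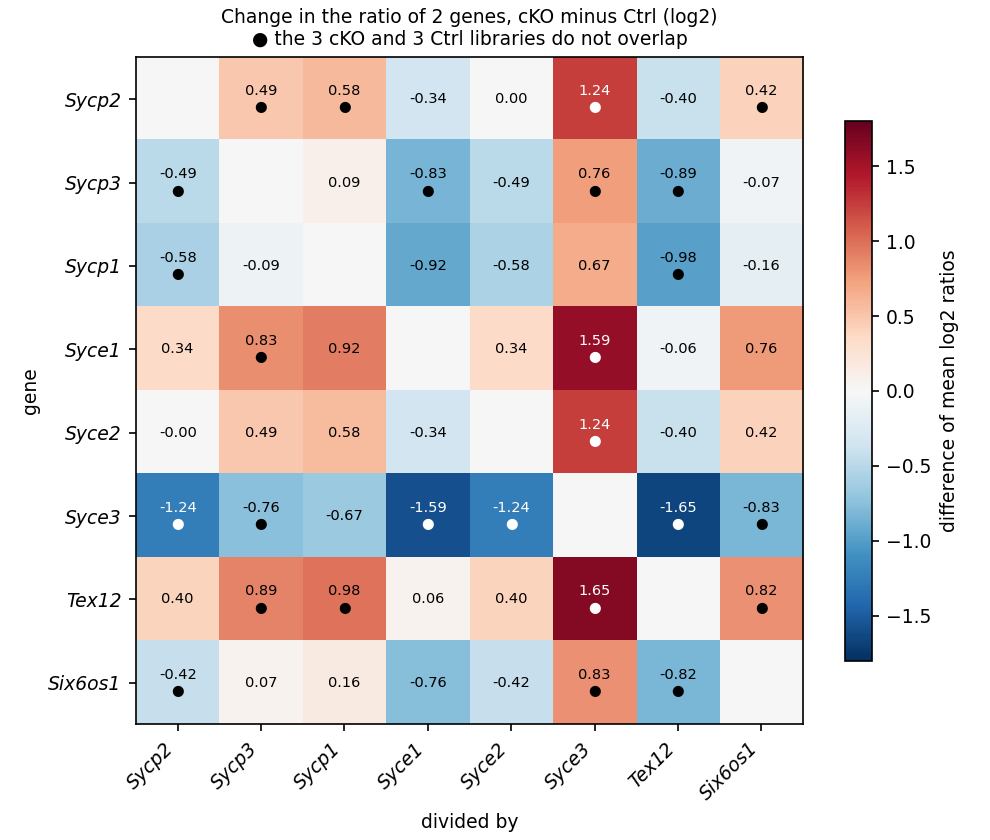
Difference between cKO and Ctrl in the mean log2 ratio of (FPKM + 1) for each pair of synaptonemal complex genes, row gene over column gene, where a dot marks pairs whose 3 cKO and 3 Ctrl libraries do not overlap. The *Syce3* row is negative throughout, down to -1.65 against *Tex12*, and 13 of the 28 pairs carry a dot.

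The other genes of chromosome axes, synapsis and recombination were read as a list of 23, all tested. Of these, 1 was higher in cKO, *Ccdc36* (also *Iho1*, needed for meiotic DNA breaks), and 2 were lower, *Psmc3ip* and *Mnd1*, whose proteins form a complex that helps DMC1 in strand exchange, while 20 did not pass. Over all genes tested, 2.68% were higher and 1.75% lower. *Ccdc36* FPKM was 3.97, 5.64 and 11.7 in Ctrl and 22.2, 9.69 and 21.4 in cKO, with overlap (log2 fold change 1.24, unadjusted p = 0.0236 in limma). *Psmc3ip* FPKM was 6.79, 10.4 and 12.1 in Ctrl and 5.69, 5.77 and 3.68 in cKO, lower in every cKO library (log2 fold change -0.82, unadjusted p = 0.0121 in limma). *Mnd1* FPKM was 6.10, 6.99 and 9.09 in Ctrl and 4.80, 4.77 and 6.20 in cKO, with cKO 3 just above Ctrl 1 (log2 fold change -0.42, unadjusted p = 0.0499 in limma). The *Mnd1* call was lost without a minimum FPKM, under median-ratio scaling, quantile normalization and voom, without an intensity trend, and without Ctrl 2, Ctrl 3, cKO 1 or cKO 2. The *Ccdc36* call was lost without Ctrl 1, Ctrl 2, cKO 1 or cKO 3, and the *Psmc3ip* call was kept with each library left out. The median log2 fold change of the list was 0.64, with 19 of 23 above 0, close to that of the 8 members. Between 1 (without Ctrl 2 or without cKO 1) and 14 (without cKO 2) of the list passed with single libraries left out, and 8 without Ctrl 3. Over all genes, 202 were higher and 163 lower without Ctrl 2, and 233 and 208 without cKO 1. Without cKO 2 they were 1461 and 1039, and without Ctrl 3 they were 551 and 625.

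Over the 6 libraries, each member was compared with the mean of the other 7. Pearson's r was 0.989 for *Sycp2*, 0.971 for *Six6os1*, 0.966 for *Sycp3*, 0.941 for *Sycp1*, between 0.865 and 0.879 for *Syce1*, *Syce2* and *Tex12*, and 0.635 for *Syce3*. Among the genes tested that are no members, the 6 most like the members' mean were *AI481877* (r = 0.999), *Gm35188* (0.998), *Cpeb1*, *BC051142*, *4930524B15Rik* and *Stag3* (0.996 each). *Stag3*, a cohesin subunit of the meiotic chromosome axis, had an FPKM of 16.6, 32.3 and 54.6 in Ctrl, against 67.4, 23.9 and 56.3 in cKO, with the same order of low and high libraries as *Sycp2*. *Cpeb1*, which controls translation in oocytes, had 4.96, 14.1 and 23.6 in Ctrl and 30.4, 8.74 and 28.3 in cKO. These correlations describe 6 libraries that share a tissue and carry no test.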

How the data were processed

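RNA of whole ovaries at 16.5 dpc was compared between 3 Ctrl and 3 cKO libraries, grouped by their labels. Ovary is the tissue in the sample fields and in the paper, but the extraction text attached to the samples mentions a different tissue. Paired-end reads had been mapped to GRCm38 with HISAT2 2.0.5 (version from the submitters' processing notes) and counted with featureCounts, and the authors deposited the resulting FPKM of 54532 genes. The sources used here give neither the annotation release nor strand handling. Deposited gene coordinates equal those of GENCODE M21.

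Multiplied by gene length, 100% of the values were whole reads (tolerance 0.05 of a read). Libraries held between 14212164 and 16784241 reads on genes and the members between 162 and 8395 reads, so counting error was small. Values were compared as log2(FPKM + 1) with limma 3.58.1 in R 4.3.3, with an intensity trend and two-sided tests, for 17180 genes, those whose mean FPKM reached 0.5, which keeps all members. The Benjamini-Hochberg method was used over all of them. Log2 fold changes on this scale understate the change of genes with low values. Single levels and ratios were compared with exact permutation tests, which cannot go below p = 0.1. Python 3.11.15, pandas 2.3.3, scipy 1.17.1 and matplotlib 3.10.9 were used for tables and figures. The limma fit without a covariate was also run on simulated reads, drawn for each gene on its own. That run does not cover genes that rise and fall together, nor the fits with a covariate.

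Named genes are *Srsf1*, all members, genes that overlap them, members of the marker lists that pass the limit or are under discussion and the 6 genes most like the members. Lists were written by hand for germ cells, meiotic initiation, early germ cells, late oocytes, pregranulosa cells, stroma, red blood cells, endothelium, immune cells, mesonephros and partners in axes and synapsis. The members, the lists, the covariate and the motifs were chosen with earlier results of these data known. The alternatives were other pseudocounts, minimums, scalings and variance models, voom, the replicate number as a block, a germ-cell covariate and each library left out. Splicing was not analysed here, because values per gene hold no junction reads. Promoter sequence was taken from RefSeq windows of GRCm38.p6.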

Additional observations from a re-analysis of the deposited data

How the results depend on the processing

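The count of 3 members past the unadjusted limit was 3 under pseudocounts of 0.1 and 0.5, no minimum or a minimum FPKM of 1, median-ratio scaling, voom and no intensity trend, and 2 after quantile normalization, without *Syce2*. It was 7 with the germ-cell level as a covariate, and, for covariates chosen after seeing the data, 5 with *Ddx4*, 5 with *Dazl* and 7 with the germ-cell level without *Dazl* or without *Dnd1*. With single libraries left out it was between 0 and 4, and with the covariate between 4 and 7. Of the 23 partners, 5 passed with the covariate and between 1 and 14 with a library left out. The members that did not overlap per germ-cell level numbered 4 at a pseudocount of 0.1 and 5 with *Dazl* alone, and between 3 and 7 with a library left out. The ratios that did not overlap numbered 11 after quantile normalization and between 13 and 20 with a library left out. The limma calls over all genes shifted between these settings as well. The cause of these shifts was not tested.

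Signs turned under a covariate. For *Sycp1* the log2 fold change was -0.82 with the germ-cell level, -0.39 with *Ddx4*, -1.62 with *Dazl*, -0.69 without *Dazl* in the list and -0.83 without *Dnd1*. For *Sycp2* it was -0.11 with the germ-cell level, -0.81 with *Dazl* and -0.12 without *Dnd1*. For *Sycp3* it was -0.47, -0.14 with *Ddx4*, -1.09 with *Dazl*, -0.37 without *Dazl* and -0.47 without *Dnd1*. For *Six6os1* it was -0.58, -0.17 with *Ddx4*, -1.33 with *Dazl*, -0.45 without *Dazl* and -0.58 without *Dnd1*. Without a covariate and with a library left out, log2 fold changes ranged from -0.37 to 0.93 for *Sycp1*, 0.36 to 1.46 for *Sycp2*, -0.13 to 0.82 for *Sycp3*, 0.82 to 1.59 for *Syce1*, 0.65 to 1.13 for *Syce2*, -0.95 to 0.015 for *Syce3*, 0.87 to 1.63 for *Tex12*, -0.10 to 1.07 for *Six6os1* and -1.07 to -0.90 for *Srsf1*. With the covariate and a library left out, *Sycp1* ranged from -1.04 to -0.72, *Syce3* from -1.40 to -0.96, *Tex12* from 0.52 to 0.64, *Sycp2* ranged from -0.22 to 0.12, *Sycp3* from -0.55 to -0.43, *Syce1* from 0.42 to 0.77, *Syce2* from 0.32 to 0.52 and *Six6os1* from -0.77 to -0.36.

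Whether the replicate numbers pair the libraries is not known. Deviations from the group means correlated at -0.39, -0.030 and 0.12 for same-numbered libraries. Libraries of unlike number reached 0.35 (Ctrl 1 with cKO 2) and -0.34 (Ctrl 3 with cKO 2). Deviations within so small a group depend on each other, so these values cannot decide on pairing. With the replicate number as a block, 3 members passed, the same 3 genes, and 6 of the 23 partners did (4 higher and 2 lower).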

Other observations

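Genes of meiotic initiation were read in the same libraries. *Gm4969* (also *Meiosin*) and *Stra8*, whose proteins switch on meiotic genes, passed the unadjusted limit in limma with log2 fold changes of 1.82 and 2.06, 2 of 5 genes of that list, where 2.68% of all genes tested were higher and 1.75% lower. Relative to the germ-cell level, *Gm4969* was 0.40, 0.45 and 0.21 in Ctrl 1, 2 and 3, against 1.75, 1.55 and 1.24 in cKO 1, 2 and 3, with no overlap. *Stra8* is also the gene whose promoter drives Cre in the cKO mice. Of the 7 early germ-cell genes tested, 3 were higher (*Dppa3*, *Lin28a* and *Utf1*) and 0 lower, against the same shares of all genes, and of the 6 late oocyte genes 0 passed, with a median log2 fold change of -0.20.

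Of the 23 partners, *Hormad2*, *Rad21l* and *Ccdc36* were higher and *Msh4* and *Psmc3ip* lower in every cKO library relative to the germ-cell level, 5 of 23 against 3.61% of all genes tested whose groups did not overlap on that scale. As for the members, all genes are not a like set on that scale. *Rec8*, a meiotic cohesin, ran against the members, with an FPKM of 50.7, 17.4 and 20.8 in Ctrl and 12.4, 47.5 and 17.0 in cKO, highest in Ctrl 1 and cKO 2, in which the members were lowest within each group.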
